A study of Homo sapiens with 10 samples.

Results

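The genes that set the pace of G1, the phase before DNA replication, were followed in melanoma cells made resistant to encorafenib, a BRAF inhibitor, and binimetinib, a MEK inhibitor. The 10 members were taken by gene symbol from the 57955 genes of the deposited files and are the D-type cyclins CCND1, CCND2 and CCND3, the E-type cyclins CCNE1 and CCNE2, the kinases CDK4 and CDK6, and the CDK inhibitors CDKN1A, CDKN1B and CDKN2A. Each of 5 melanoma cell lines from a BRAF V600E series was sequenced once as the original, drug-sensitive line and once as its resistant derivative, which gave 5 sensitive and 5 resistant libraries. WM983A, WM278 and WM902B are of primary and WM983B and WM1617 of metastatic origin. The resistant lines were raised over 3 to 5 months in the drug combination, from 1 nM up to 200 nM, and were then kept at 200 nM, so the presence of the drugs and the acquired resistance cannot be told apart. A resistant line is 1 derivative of its parent with 1 library, and no spread within a line was measured. All values are RNA levels, and protein was not analysed here. WM983A and WM983B are lines of 1 patient, as are WM278 and WM1617, so the 5 lines are not fully independent.

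In G1, D-type cyclins pair with CDK4 or CDK6 and phosphorylate the retinoblastoma protein, which frees E2F transcription factors. E2F switches on E-type cyclins and the DNA replication genes, and cyclin E with CDK2 carries the cell into S phase. The INK4 inhibitor p16, from CDKN2A, blocks CDK4 and CDK6, while the CIP/KIP inhibitors p21, from CDKN1A, and p27, from CDKN1B, act mainly on CDK2. In melanoma the BRAF-MEK-ERK cascade drives CCND1, and CDKN2A is often lost.

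CDKN2A has 2 start sites whose first exons lead to different proteins, p14ARF from the upstream site and p16INK4A from the downstream one, and the deposited value sums them into 1 gene. The 250 bases before each start are shown because CDKN2A gave the widest range of levels among the members, and those of CDK4 because it was the member with the most matches to the motifs searched. The sequences are RefSeq sequences of GRCh38.p14, printed 5′ to 3′ on the minus strand. CACGTG, the E-box core bound by MYC and related factors, is in capitals.
CDKN2A, upstream start, chr9:21995325-21995574: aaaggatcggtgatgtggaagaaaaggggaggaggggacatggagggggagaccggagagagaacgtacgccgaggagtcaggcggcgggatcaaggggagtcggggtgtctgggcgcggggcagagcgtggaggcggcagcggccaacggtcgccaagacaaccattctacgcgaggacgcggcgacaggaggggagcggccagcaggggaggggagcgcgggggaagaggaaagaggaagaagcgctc
CDKN2A, downstream start, chr9:21974858-21975107: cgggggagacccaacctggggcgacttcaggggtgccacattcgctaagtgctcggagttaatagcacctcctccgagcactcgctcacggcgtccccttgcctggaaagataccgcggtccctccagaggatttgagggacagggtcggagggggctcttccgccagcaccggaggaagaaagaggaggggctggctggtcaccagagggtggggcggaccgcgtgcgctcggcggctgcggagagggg
CDK4, chr12:57752311-57752560: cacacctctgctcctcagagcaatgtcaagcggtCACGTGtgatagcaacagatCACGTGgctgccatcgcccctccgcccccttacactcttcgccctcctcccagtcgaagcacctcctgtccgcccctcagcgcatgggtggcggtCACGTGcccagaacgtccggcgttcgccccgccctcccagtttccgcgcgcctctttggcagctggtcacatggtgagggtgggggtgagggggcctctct
The RefSeq promoter table matched 7 of the 10 members. CCND1, CCND2 and CCNE2 were not matched, so their promoters were not searched for any motif. For the others, a window from 250 bases before to 50 bases after each start was searched on both strands. The CDK4 window held 3 copies of CACGTG and 1 CDK6 window held 1, against 7.26% of all 35116 windows with any. Neither of the E2F motifs TTTCGCGC and TTTGGCGC, nor the CRE motif TGACGTCA, nor the AP-1 motif TGANTCA was found in a matched member's window. These motifs were present in 0.515%, 0.652%, 1.85% and 7.71% of all windows, respectively. TTTCGCGC and TTTGGCGC are variants of 1 site, and 1.15% of windows held either. A match in the letters is a description and not a bound site.

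The libraries held between 13693922 and 18033247 counts. The resistant WM983A library stood apart: over the genes tested it correlated more with sensitive WM902B (r = 0.81) than with its own parent (r = 0.79). The summed level of 8 melanocyte markers was 1365, 2137 and 3541 normalized counts in resistant WM983A, WM983B and WM902B, against 53453, 30948 and 44161 in their parents, and 67333 in resistant WM1617 against 68427. It was low already in sensitive WM278 (6526) and higher in resistant WM278 (14067). The rise there was mostly S100B, which went from 1411 to 9512, while SOX10 went from 4845 to 4165. In resistant WM902B most of the sum was MITF, at 3347 against 6114 in its parent, while SOX10 went from 4844 to 10.11. MITF went from 5851 to 521.1 in WM983A and from 4013 to 561.4 in WM983B. The summed level of 7 fibroblast markers was 21145 in resistant WM902B, of which COL1A1 alone made up 18770. In that library 6 of them were above 3 counts and COL1A2 was at 1.03. The fibroblast sum was between 118.3 and 2308 in the other 9 libraries. Endothelial, keratinocyte and leukocyte markers summed to 306.9 or less in each library. The part of these shifts in the members' values was not tested. A normalized count is the deposited expected count scaled to a common library size of 15204212.

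Across the lines, the members did not move together. CCNE2 was the 1 member of the 9 tested that was lower by 2-fold or more in the resistant lines at an unadjusted p of 0.05 or less, and no member was higher. Over all 17288 genes tested, 0.885% were lower and 3.53% were higher by the same rule. After Benjamini-Hochberg adjustment in edgeR's quasi-likelihood test no gene passed (0% of those tested), while 1235 genes had an unadjusted p of at most 0.05. The median log2 fold change of the 9 members was -0.41, beside 0.03 over all genes tested. For none of the 10 members were the sensitive and the resistant levels separate, and 0.758% of the genes tested had separate groups. Testing the resistance effect between lines of primary and of metastatic origin gave unadjusted p-values from 0.196 to 0.869 for the members, each 1 after adjustment (edgeR interaction).

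**Figure D1:**
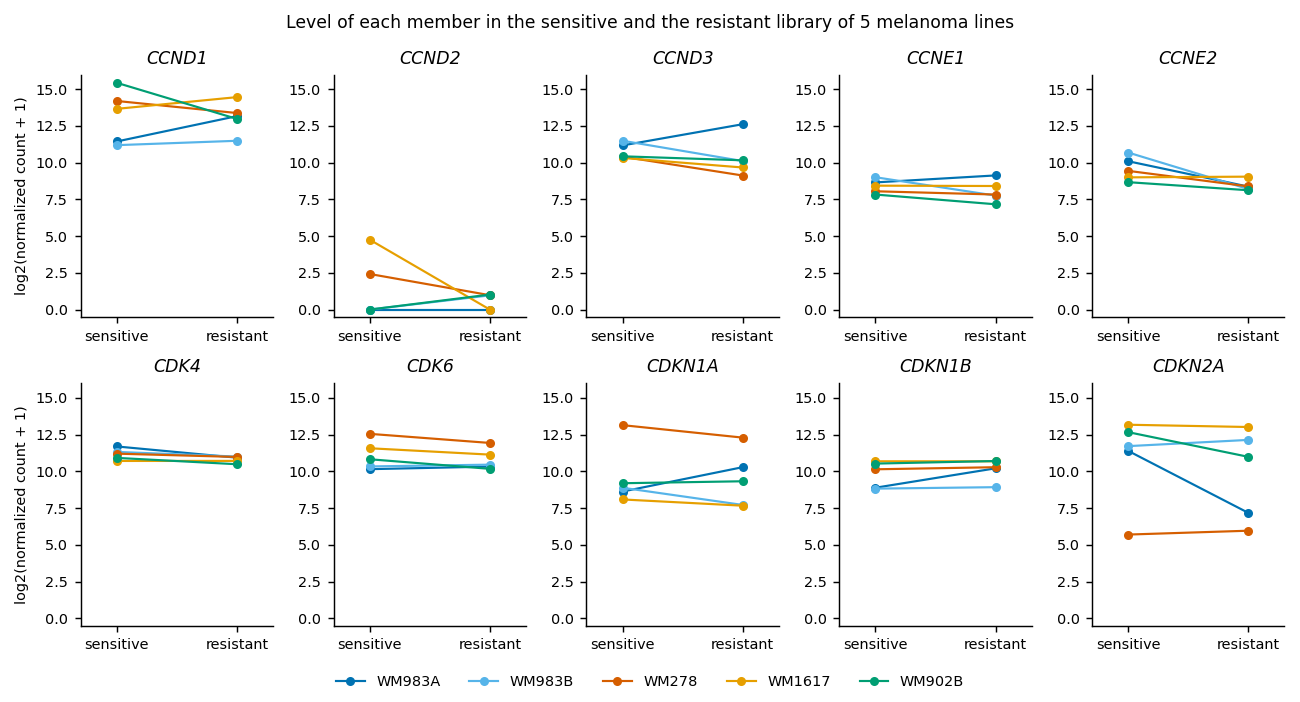
Each panel plots 1 gene, with log2(normalized count + 1) on the vertical axis and 1 line per cell line joining its sensitive to its resistant library (1 library each, no error bar). CCNE2 lies between 277.8 and 333.3 normalized counts in 4 of the resistant lines, while WM278 is the highest line for CDKN1A and the lowest for CDKN2A in both states.

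Cyclin D1, the ERK-driven partner of CDK4 and CDK6, went in opposite directions in different lines. CCND1 (chromosome 11, 69641156-69654474, GENCODE on GRCh38) had 2784, 2339, 18807, 12981 and 44329 normalized counts in sensitive WM983A, WM983B, WM278, WM1617 and WM902B. The resistant libraries had 9213, 2876, 10652, 22566 and 8062 in the same order. WM902B had the highest value of the sensitive group and came to lie below 3 of the other resistant lines, and the groups overlapped. Within lines, CCND1 was 3.31-fold higher in resistant WM983A and 5.50-fold lower in resistant WM902B, with 3 lines higher and 2 lower. The log2 fold change was -0.61 (SE 0.79, adjusted p = 0.91, edgeR), and an exact two-sided permutation test gave p = 0.913. With cell line as a block it was -0.04, without WM902B 0.30 and without WM1617 -1.16.

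Cyclin D2 was nearly silent. CCND2 (chromosome 12, 4269771-4305353) had 24 counts in sensitive WM1617 and 4.57 in sensitive WM278, and was at 1 count or 0 in the other 8 libraries. Set against a floor of 3 counts in the resistant library, the level in WM1617 was at least 9.98-fold lower after resistance. Its counts were too low for the edgeR test, and the exact permutation test gave p = 0.484. Its neighbours PARP11, C12orf5 and RAD51AP1 were each at 98.97 normalized counts or more in every library, and FGF23 was at 0 in all 10.

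Cyclin D3 can replace cyclin D1 in the same complexes. CCND3 (chromosome 6, 41934934-42050357) had 2311, 2882, 1357, 1280 and 1382 normalized counts in sensitive WM983A, WM983B, WM278, WM1617 and WM902B. In the resistant libraries it had 6284, 1104, 557.7, 814.5 and 1144. Resistant WM983A was the highest of all 10 libraries, and the other 4 resistant lines lay below their parents by 1.21-fold to 2.61-fold. The log2 fold change was 0.10 (SE 0.63, adjusted p = 0.986, edgeR; exact permutation p = 0.532). Leaving out WM983A gave -0.93 with an unadjusted p of 0.0296, short of a 2-fold difference, and adding the line as a block gave -0.47 (unadjusted p = 0.318).

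Per kilobase of exon, which allows levels of different genes to be compared, CCND1 was the largest of the D-type cyclins in every library except sensitive WM983B. Its share of their sum was 59.3%, 49.5%, 94.4%, 92.4% and 97.5% in sensitive WM983A, WM983B, WM278, WM1617 and WM902B, and 64%, 75.9%, 95.8%, 97.1% and 89.5% in the resistant libraries. CCND3 made up 24.1% or more in the 4 libraries of WM983A and WM983B, and 10.5% or less in the other 6. The summed level was between 52.34 normalized CPM per kilobase in resistant WM983B and 628.2 in sensitive WM902B. With the longest transcript in place of all exons as the length, the median share of CCND3 went from 7.53% to 14.8% in the sensitive and from 10.5% to 20.1% in the resistant libraries. By that length (4238 bases for CCND1 and 2394 for CCND3), CCND3 was above CCND1 in sensitive WM983A, sensitive WM983B and resistant WM983A. The shares carry no replicate error within a line.

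**Figure D2:**
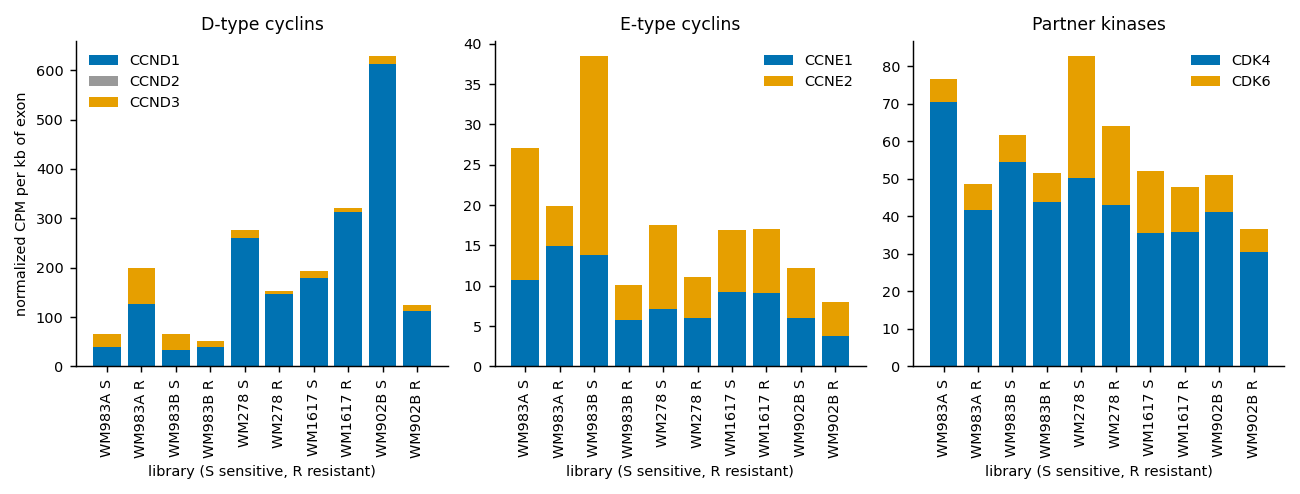
Stacked bars give normalized CPM (counts scaled to a common depth) per kilobase of exon for the D-type cyclins, the E-type cyclins and the kinases in each of the 10 libraries (S sensitive, R resistant, 1 library each). Sensitive WM902B has the highest D-type sum (628.2), sensitive WM983B the highest E-type sum (38.45), and CDK4 is above CDK6 in all 10 libraries.

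CCND1 was read beside 15 genes that ERK signalling drives, itself among them. Of these, EGR1 was called higher, with a log2 fold change of 1.56 (unadjusted p = 0.0272), and DUSP4 (-1.24, unadjusted p = 0.0325) and SPRED1 (-1.16, unadjusted p = 0.0296), both feedback inhibitors of the pathway, were called lower in edgeR. SPRED2 (-0.92, unadjusted p = 0.0202) and ETV5 (-1.16, unadjusted p = 0.0539) followed without passing the rule. With cell line as a block, 0 were called higher and 6 lower, while over all genes that block called 3.49% higher and 2.05% lower. Without WM1617, 10 of the list were called, and without WM983A or WM278, 0, beside 1493, 562 and 841 genes called in all. The list median was -0.92, beside 0.03 over all genes. In resistant WM983A the list median was -1.27 while CCND1 was at 1.73, and in resistant WM902B both were low, at -2.24 and -2.46. In WM1617 the list median was 0.00 and CCND1 was at 0.80.

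**Figure D3:**
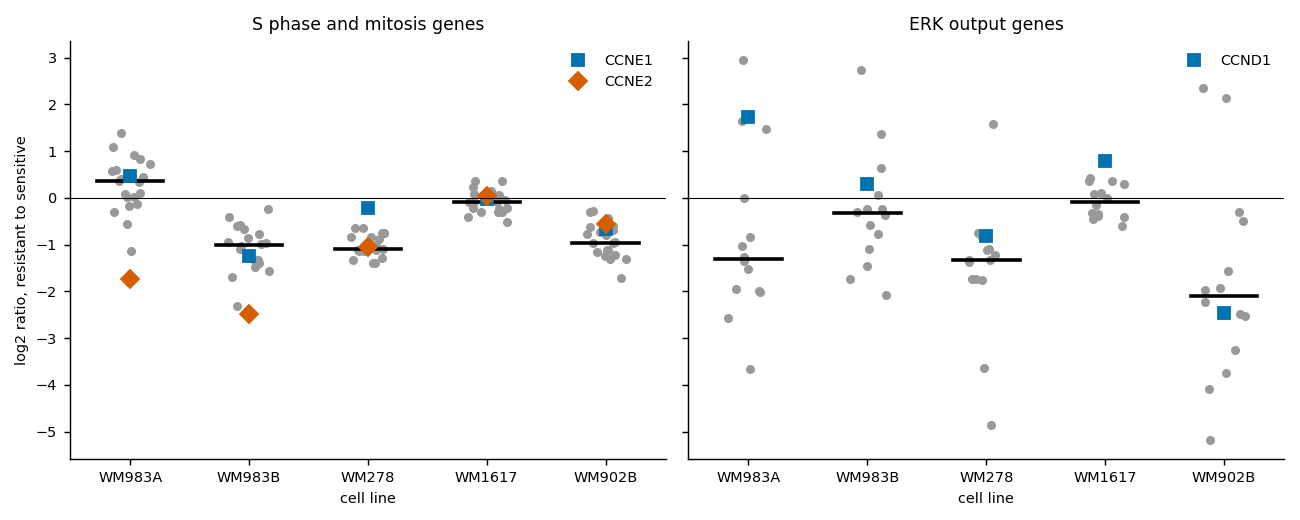
Log2 ratios of resistant to sensitive within each line for the S phase and mitosis genes (left, with CCNE1 and CCNE2 as coloured symbols) and the ERK output genes without CCND1 (right, CCND1 as a square), where grey points are genes and black bars their medians. CCND1 sits at 1.73 in WM983A, above all but 1 of the ERK output genes, and CCNE2 at -1.73 in WM983A, below all S phase genes.

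Since CCND1 was over 4-fold lower in resistant WM902B, the genes beside it on 11q13 were read as well. CTTN and ORAOV1 had nearly the same level in both WM902B libraries, with log2 ratios of -0.05 and -0.12. PPFIA1 (-0.78), TPCN2 (-0.83) and FADD (-1.08) were moderately lower, while MYEOV (-3.42) was lower by more than CCND1. ANO1 had 53.95 normalized counts in sensitive and 2.40 in resistant WM902B. In the sensitive state CTTN stood at 11907 normalized counts in WM902B and 9606 in WM1617, against 1989 to 3149 in the other 3 lines. PPFIA1 and FADD were also highest in WM902B and WM1617. FGF3 and FGF4 were at 0 in all 10 libraries, and FGF19 was under 2 normalized counts in each.

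Cyclin E2 was lower in 4 of the 5 resistant lines and was the member with the smallest p in edgeR. CCNE2 (chromosome 8, 94879770-94896678) had 1095, 1651, 694.9, 511.1 and 406.9 normalized counts in sensitive WM983A, WM983B, WM278, WM1617 and WM902B. The resistant libraries had 329.5, 293.8, 333.3, 528.5 and 277.8. The 4 lower resistant lines lay within a narrow band, WM1617 kept the level of its parent, and that value made the groups overlap. In RNA of whole cultures, fewer cycling cells and less RNA per cell cannot be told apart. The difference was 5.61-fold in WM983B, 3.32-fold in WM983A, 2.08-fold in WM278 and 1.46-fold in WM902B. The log2 fold change was -1.31 (SE 0.39, unadjusted p = 0.00677, adjusted p = 0.63, edgeR), and the exact permutation test gave p = 0.0238, where 0.00794 is the smallest it allows. That test ignores the pairing by line, and an exact permutation test within lines, added after seeing the data, gave p = 0.125, where 0.0625 is the smallest it allows. Without WM983B it was -0.88 and no longer 2-fold.

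RNA for cyclin E1 was at least 2-fold lower in 1 resistant line, WM983B. CCNE1 (chromosome 19, 29811991-29824312) had 402.4, 514.5, 264.6, 345 and 226.6 normalized counts in sensitive WM983A, WM983B, WM278, WM1617 and WM902B. The resistant libraries had 559.8, 215.4, 226.7, 339.4 and 142.8. Resistant WM983A was the highest of all, resistant WM902B the lowest, and the groups overlapped throughout. The log2 ratios were 0.48, -1.25, -0.22, -0.02 and -0.66, below 0 in the same 3 lines as CCNE2 and in WM1617, and above 0 in WM983A. The difference between CCNE1 and CCNE2 was not tested. The log2 fold change was -0.24 (SE 0.39, adjusted p = 0.93, edgeR; exact permutation p = 0.405). Without WM983B it was 0.02 and without WM983A -0.55. Per kilobase, the share of CCNE1 in the E-type sum was 39.6%, 35.8%, 40.5%, 54.7% and 49.9% in the sensitive libraries. It was 75.2%, 56.7%, 54.9%, 53.4% and 47.9% in the resistant ones, so CCNE1 was the smaller part in 4 sensitive lines and in 1 resistant line.

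E2F drives CCNE2 together with the DNA replication genes, and a list of 20 S phase and mitosis genes, not all of them replication genes, was set beside it. Of these, 19 had a negative and 1 a positive log2 fold change, the median was -0.46, and 1 was called, RRM2, the small subunit of ribonucleotide reductase (-1.12, SE 0.44, unadjusted p = 0.0298, edgeR). Of all 17288 genes tested, 8124 had a negative log2 fold change, the median was 0.03, and 0.885% were called lower. The replication helicase subunit MCM5 (-0.59, unadjusted p = 0.0239), RRM1 (-0.48, unadjusted p = 0.0745), PCNA (-0.58, unadjusted p = 0.0876) and TYMS (-0.85, unadjusted p = 0.0988) were next by p. By line, all 20 were lower in resistant WM983B, WM278 and WM902B, with medians of -1.01, -1.09 and -0.96. Of the 17288 genes tested, 8602, 8563 and 8575 were lower in these lines, with a median of 0.00 in each. In WM1617 12 of the 20 were lower and the median was -0.08. In WM983A only 5 of the 20 were lower and the median was 0.36, while CCNE2 was at -1.73 there. Over all genes tested, 8770 were lower in WM1617 and 8442 in WM983A. CCNE2 and the list median were both negative in WM983B, WM278 and WM902B, both near 0 in WM1617 and of opposite sign in WM983A.

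CDK4 and CDK6, the catalytic partners of the D-type cyclins, stayed under a 2-fold difference in all 5 lines. CDK4 (chromosome 12, 57747727-57756013) had 3323, 2569, 2366, 1677 and 1938 normalized counts in sensitive WM983A, WM983B, WM278, WM1617 and WM902B. The resistant derivatives had 1958, 2064, 2026, 1681 and 1436. All 10 libraries lay within 2.31-fold of each other, the narrowest range of the members. Resistant WM1617 was level with its parent, and the other 4 resistant lines were below theirs. Across the lines, the log2 fold change was -0.37 (SE 0.22, adjusted p = 0.764, edgeR; exact permutation p = 0.143), and -0.25 without WM983A.

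CDK6 (chromosome 7, 92604921-92836573) had 1138, 1295, 6029, 3054 and 1817 normalized counts in sensitive WM983A, WM983B, WM278, WM1617 and WM902B. Their resistant derivatives held 1285, 1408, 3925, 2262 and 1156. WM278 was the highest line in both states and WM1617 the next. Within lines the log2 ratios ran from -0.65 to 0.18, under 2-fold in all 5. Between the groups the log2 fold change was -0.41 (SE 0.52, adjusted p = 0.904, edgeR; exact permutation p = 0.619), and -0.25 without WM278. Per kilobase, CDK6 made up 7.97% of the sum of both kinases in sensitive WM983A and 39.2% in sensitive WM278, and between 14.2% and 32.9% in the resistant libraries.

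**Figure D4:**
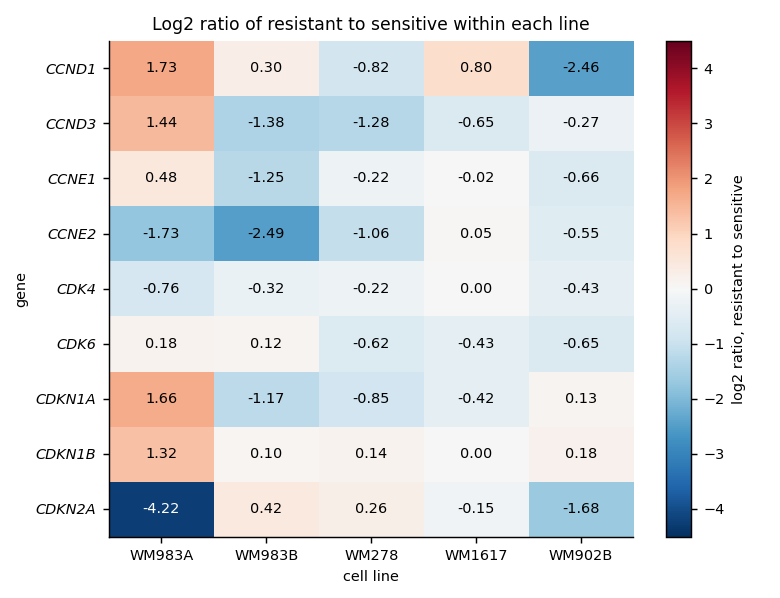
Colour and number give the log2 ratio between the resistant and sensitive library for 9 members (rows) in each of the 5 lines (columns), 1 library per state and no error estimate. CCND2 is left out because of its low counts. CDKN2A in WM983A (-4.22) is the strongest difference shown, and in WM1617 none of the 9 members reaches 2-fold.

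RNA for p21, which stops the cell cycle under p53, differed widely between lines. CDKN1A (chromosome 6, 36676460-36687337) had 395.1, 472.6, 9090, 271.9 and 585.6 normalized counts in sensitive WM983A, WM983B, WM278, WM1617 and WM902B. In the resistant state the values were 1250, 209.7, 5047, 202.3 and 642.3. WM278 was far above the other lines in both states, 15.5-fold above the next sensitive line. Resistant WM983A was 3.16-fold above and resistant WM983B 2.25-fold below its parent. Over all libraries, the log2 fold change was -0.56 (SE 1.19, adjusted p = 0.953, edgeR; exact permutation p = 0.921). With cell line as a block it was -0.16, and without WM278 0.41.

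Of 14 other p53 targets, 11 were highest in WM278 among the sensitive libraries and 9 among the resistant ones. Over all genes tested, 26.8% and 19.6% had their highest level there. MDM2, the p53 inhibitor, was picked after its values were seen and had 2468 normalized counts in sensitive WM278 against 840.8 to 978.1 in the other sensitive lines. With resistance, 0 of the 14 passed the rule in either direction, and the list median was 0.30. PHLDA3 was closest (-0.96, unadjusted p = 0.0204, edgeR) and was called with cell line as a block (-1.08, unadjusted p = 0.0207). BBC3 (1.01, unadjusted p = 0.188), XPC (0.53, unadjusted p = 0.196), TP53I3 (0.73, unadjusted p = 0.208) and GADD45A (0.65, unadjusted p = 0.243) were next.

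RNA for p27 differed little within 4 of the lines. CDKN1B (chromosome 12, 12685498-12722369) had 473.3, 453.6, 1131, 1650 and 1480 normalized counts in sensitive WM983A, WM983B, WM278, WM1617 and WM902B. In the resistant lines it had 1184, 486, 1248, 1651 and 1672. WM983A and WM983B were the lowest lines when sensitive, and of these WM983A was 2.50-fold higher when resistant. The other 4 lines had ratios of 1.00 to 1.13. Tested over the 5 lines, the log2 fold change was 0.27 (SE 0.44, adjusted p = 0.935, edgeR; exact permutation p = 0.484), and 0.10 without WM983A. All 5 log2 ratios were above 0 after TMM scaling, though WM1617 was level with its parent (0.0008). By the exact permutation test within lines, added after seeing the data, CDKN1B had p = 0.0625. That is the smallest p this test allows and lies below that of CCNE2 (0.125). With DESeq2's median-ratio size factors in place of TMM, the CDKN1B ratio in WM1617 fell just below 0. This p and its place below that of CCNE2 therefore rest on the choice of scaling. SKP2, the ubiquitin ligase subunit that marks p27 for destruction, had a log2 fold change of -0.68 (unadjusted p = 0.0577), with ratios of -1.21, -1.09, -1.35, -0.01 and -0.35 in WM983A, WM983B, WM278, WM1617 and WM902B.

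CDKN2A had the widest range of the members, 182-fold across the libraries. CDKN2A (chromosome 9, 21967752-21995301) had 2698, 3376, 51.05, 9268 and 6531 normalized counts in sensitive WM983A, WM983B, WM278, WM1617 and WM902B. Resistant cells had 143.8, 4529, 61.41, 8324 and 2037. WM278 was low in both states, 52.8-fold below the next sensitive line, although WM1617, its metastatic counterpart, was the highest line. Resistant WM983A joined it at the low end, 18.6-fold below its parent, and resistant WM902B was 3.21-fold below its own. The log2 fold change over the 5 lines was -0.54 (SE 1.26, adjusted p = 0.956, edgeR; exact permutation p = 0.651). With cell line as a block it was -0.94 (unadjusted p = 0.24), and leaving out 1 line gave values between -0.23 (without WM902B) and -0.91 (without WM1617). How reads shared with the similar exon of CDKN2B were assigned is not given in the sources used here.

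The genes beside CDKN2A on 9p21 were read in the same libraries. In WM983A, CDKN2B, which encodes the related inhibitor p15, went from 214.8 to 19.85 normalized counts and MTAP, a methionine salvage enzyme, from 705.6 to 94.92. CDKN2B-AS1 went from 8.36 to 0.46. On either side, KLHL9 (1.17), FOCAD (1.70), MLLT3 (2.43) and DMRTA1 (0.96) had positive log2 ratios, and IFNE went from 2.00 to 58.39 normalized counts. The genes that were lower thus lay side by side, and those on both sides of them were not lower. In WM902B, MTAP (-1.56), CDKN2A (-1.68) and CDKN2B (-1.67) were lower by similar amounts, with DMRTA1 at -2.53, while CDKN2B-AS1 was at 1.04. In sensitive WM278, CDKN2A was low although MTAP had 1244 and CDKN2B 847.5 normalized counts. RNA levels alone do not give the number of gene copies, which was not measured.

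**Figure D5:**
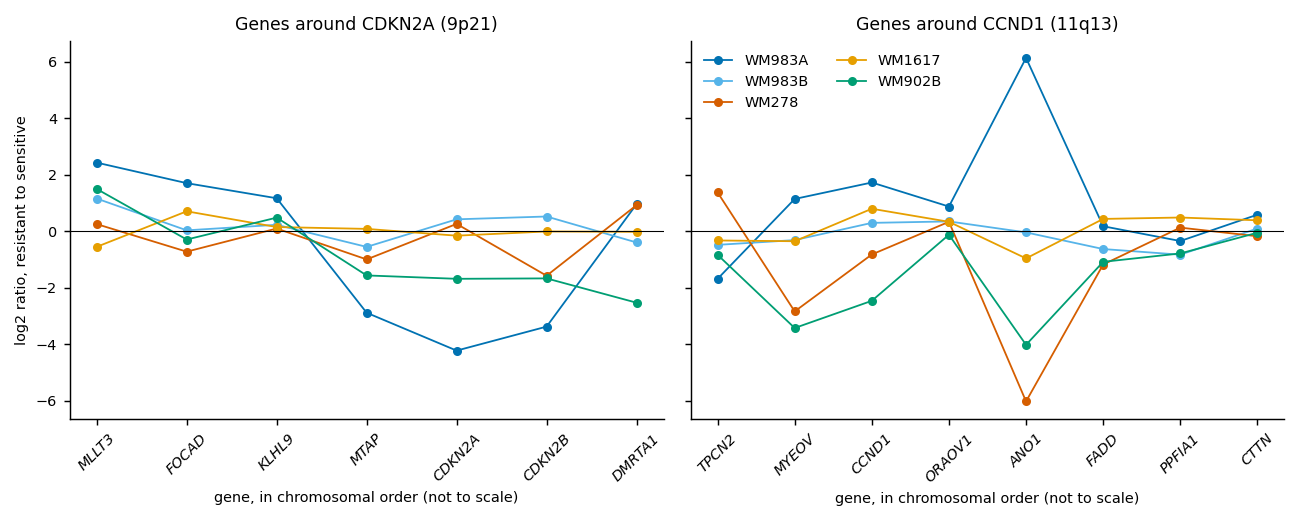
Log2 ratios of resistant to sensitive in each line for the genes around CDKN2A (left) and CCND1 (right), in chromosomal order and not to scale, 1 library per state. In WM983A, MTAP, CDKN2A and CDKN2B are between -4.22 and -2.88 with positive ratios on both sides, and in WM902B, CTTN stays at -0.05 while CCND1 is at -2.46.

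Read line by line, the members differed in number and direction. In WM983A 4 of the 9 tested members were at least 2-fold higher (CCND1, CCND3, CDKN1A and CDKN1B) and 2 lower (CCNE2 and CDKN2A), where 16.9% and 19.4% of all genes tested were. In WM983B 0 were higher and 4 lower (CCND3, CCNE1, CCNE2 and CDKN1A), beside 16.2% and 11.2%. In WM278 0 were higher and 2 lower (CCND3 and CCNE2), beside 12% and 7.02%. In WM902B 0 were higher and 2 lower (CCND1 and CDKN2A), beside 15.4% and 12%. In WM1617 no tested member passed in either direction, beside 2.83% and 3.79%, while CCND2 was lower there but was not tested. The median absolute log2 ratio of the members was 1.44 in WM983A and 0.15 in WM1617, against 0.71 and 0.25 over all genes tested. In WM983B, WM278 and WM902B it was 0.42, 0.62 and 0.55, against 0.58, 0.42 and 0.56. These counts have no replicate behind them.

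The paired lines of 1 patient were compared in the sensitive state. Between sensitive WM983A and WM983B no tested member was 2-fold apart, and the largest log2 difference was 0.59. Between sensitive WM278 and WM1617, 2 members were at least 2-fold apart, CDKN1A and CDKN2A, with a largest log2 difference of 7.48. Of all genes tested, 11.6% and 35.9% were 2-fold apart in these pairs, so the pairs differed in the same direction over all genes.

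The rest of the G1/S network was read from a list of 36 genes, all of which passed the filter. Over all genes tested, 3.53% were higher and 0.885% lower by the same rule, with a median of 0.03. Of the 36, 0 were higher and 3 lower, and the list median was -0.27. The 3 were E2F8 (-1.14, SE 0.33, unadjusted p = 0.00558), a repressor of E2F targets, CDC25A (-1.04, SE 0.41, unadjusted p = 0.0293), the phosphatase that activates CDK2, and E2F1 (-1.03, SE 0.43, unadjusted p = 0.0377), an activator of the S phase genes (edgeR, adjusted p = 0.63, 0.676 and 0.685). CDK2, the partner of the E-type cyclins, had log2 ratios of -1.72, -1.04, -0.74, -0.43 and -2.34 in WM983A, WM983B, WM278, WM1617 and WM902B. Its log2 fold change was -1.11 (SE 0.56, unadjusted p = 0.0712). With cell line as a block CDK2 was called (-1.25, unadjusted p = 0.00549) and E2F1 was just short of 2-fold (-0.97, unadjusted p = 0.0147). Without WM983A or WM983B only E2F8 was called, without WM278 only CDK2, without WM902B none of the 36, and without WM1617 CDK2 was called beside the 3. RB1, the substrate of the D-type cyclin kinases, was at -0.25 (unadjusted p = 0.228). MYC was at 0.43 (unadjusted p = 0.309), with ratios from -1.08 in WM902B to 1.54 in WM983A. CCNE2, CDK2, E2F8, CDC25A, RRM2, DUSP4, SPRED1, ETV5 and PHLDA3 also stand in a gene list that the study drew from these libraries, so their direction here is not independent evidence.

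Over the 10 libraries, each tested member was matched to the other gene with the most similar log2 level. Pearson's r was 0.96 for CCND1 with RP11-705C15.2, 0.95 for CCND3 with AP3M1 and 0.95 for CCNE1 with ALDH18A1. It was 0.92 for CCNE2 with POLR3F, 0.95 for CDK4 with RRP7A and 0.99 for CDK6 with POM121. It was 0.95 for CDKN1A with VTI1A, 0.98 for CDKN1B with RP11-685G9.2 and 0.99 for CDKN2A with TNRC6C-AS1. The points share libraries, cell lines and, in pairs, patients, and each match is the highest among all genes tested, so these values are descriptions.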

How the data were processed

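The authors enriched mRNA with oligo-dT beads from total RNA of 5 melanoma lines and their resistant derivatives and sequenced NEBNext Ultra II libraries. The authors aligned the reads to GRCh38 (hg38) with HISAT2 and quantified genes in StrandNGS, with versions and annotation not given in the sources used here. Each deposited file held, per gene, expected counts, which need not be whole, and a log2 normalized value that the authors made from them. In the resistant files this value could be rebuilt, to within 1.6e-06, as the log2 ratio of scaled counts to the sensitive library of the same line. It is thus not a level of that library alone. The expected counts were rounded, and the log2 column was used only to restore 455 values of 1 library (sensitive WM983B) that the deposited file held as dates, all 455 matching the visible digits within 0.01. No member was among them.

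Genes passing edgeR's filterByExpr (17288 of 57955) were scaled by TMM and tested with edgeR 4.0.16 (quasi-likelihood test, R 4.3.3) in all 10 libraries without a block, with Benjamini-Hochberg adjustment. A call needs a fold of 2 and p of at most 0.05. The procedure was tested on simulated data. Those data held no pairing by line, so they do not give its error or power in this design. Within-line ratios are log2(normalized count + 1). limma 3.58.1 and DESeq2 1.42.0 were alternatives. Replicate numbers pair the samples because each resistant line comes from its namesake. The same-line correlation of deviations from the group means was -0.06, 0.54, 0.67, 0.67 and 0.38 in WM983A, WM983B, WM278, WM1617 and WM902B. The libraries held 13693922 to 18033247 counts, and a floor of 3 counts (0.166 to 0.219 CPM) covers counting error only. Nothing separates culture from technical spread, so p-values measure the spread between lines. Members and gene lists were chosen with earlier results of these data known. The named genes were all members, CDK2, RB1, E2F1, SKP2, MYC and called genes of the network list, up to 5 genes with the smallest p of the other lists, the nearest gene of each member by r, and neighbours of members with few counts or a 4-fold difference, for which CCNE2 had no list. MDM2 was added.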

Additional observations from a re-analysis of the deposited data

Results flagged for a closer look

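On the scale of log2(normalized count + 1), in each group of 5 libraries, the gap between the highest or lowest library and its neighbour was divided by the range of the group and set against Dixon's 95% critical value for 5 samples. Of 20 groups examined, 4 passed, and chance passes about 1 in 20. For CCNE2, resistant WM1617 was above the other resistant lines (528.5 normalized counts against 277.8 to 333.3, ratio 0.717). For CDKN1A, sensitive WM278 was above the other sensitive lines (9090 against 271.9 to 585.6, ratio 0.782). For CDKN1B, resistant WM983B was below the other resistant lines (486 against 1184 to 1672, ratio 0.721). For CDKN2A, sensitive WM278 was below the other sensitive lines (51.05 against 2698 to 9268, ratio 0.762).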

How the results depend on the processing

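CCNE2 stayed the 1 called member in every alternative except without WM983B, and no member passed with adjustment in any. Its log2 fold change ran from -1.64 to -0.88, and DESeq2 gave adjusted p-values of 0.139 without and 0.0977 with the block. The replicate block (cell line) gave CCNE2 at -1.15 (unadjusted p = 0.0212), turned CCND3 to -0.47, moved the ERK output calls from 3 to 6 and the p53 target calls from 0 to 1, exchanged E2F1 for CDK2 among the network calls, and changed no other call of a member or list gene. Over all genes it moved the calls from 763 to 957, with those lower from 153 to 354. Leaving out 1 line at a time gave 0 to 1 called members, 0 to 4 network genes (0 without WM902B), 0 to 1 S phase genes, 0 to 1 p53 targets, 0 to 10 ERK output genes and 419 to 1493 genes in all, against 763. The same step gave CCND1 from -1.16 to 0.30 (above 0 without WM902B), CCND3 from -0.93 (without WM983A) to 0.45, CCNE1 from -0.55 to 0.0204 (above 0 without WM983B) and CDKN1A from -0.77 to 0.41 (above 0 without WM278). CCND3 was also reversed by limma (-0.43 with and without the block) and by DESeq2 with the block (-0.47). Called ERK output genes numbered 5 by DESeq2, 8 by DESeq2 with the block, 6 by limma and 7 by limma with the block. PHLDA3 was the 1 p53 target called by limma with and without the block and by DESeq2 with it. With adjustment, DESeq2 called 106 genes without the block and 507 with it, the latter including 2 network genes (CDK2 and CDC25A), 1 S phase gene (RRM2) and 4 ERK output genes. Without adjustment, DESeq2 with the block called 1493 genes and edgeR with no filter on low counts 2258. A limit of 1.5-fold raised the pairs of member and line from 14 to 22. The cause of these changes was not tested. The depth of a library limits CCND2 alone among the members.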
